A study of Rattus norvegicus with 6 samples.

Results

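Peroxiredoxins and glutathione S-transferases are enzymes of thiol-based defence against peroxides and reactive electrophiles. Of 10 such genes considered here, 6 peroxiredoxins (Prdx1 to Prdx6) and 4 transferases (Gstm1, Gstm2, Gstp1 and Gsta4), 8 had a probe, 1 each, among the 33849 probes of the array. Members were found by matching the RefSeq accession of each probe, without its version, to the rat transcripts of the listed genes. Gstp1 and Gsta4 had no probe by this rule and were not analysed here. None of the 7 probes that could be tested passed the adjusted test between rotenone and solvent rats, and 0 of all 16708 probes tested did. Prdx6 was the 1 member whose rotenone values lay wholly above its solvent values, as at 5.08% of all probes tested. Its log2 difference fell from 0.54 to 0.33 without rotenone rat 16, with an interval of -0.05 to 0.71. Prdx1, Prdx2 and Prdx4 had lower means with rotenone that rested largely on 1 or 2 rats.

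The tissue was the substantia nigra pars compacta, isolated by laser capture from Sprague Dawley males aged 5 months. In 3 rats (16, 13 and 9) a pump under the skin released rotenone, a plant-derived inhibitor of mitochondrial complex I, at 0.5 mg/kg per day for 28 days. In the other 3 (rats 11, 7 and 1) the pump released the solvent, dimethylsulfoxide with polyethylene glycol and the surfactant Pluronic, over the same time. Both groups underwent the same pump surgery under ketamine and xylazine, and every animal has a one-colour array of its own, 6 in all. The comparison asks whether a lasting low dose of the pesticide changes the expression of these genes.

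Peroxiredoxins reduce hydrogen peroxide, organic hydroperoxides and peroxynitrite through a reactive cysteine. Prdx1 to Prdx4 form disulfide-linked dimers, which thioredoxin reduces in the case of Prdx1 to Prdx3. Prdx5 forms its disulfide within 1 chain, and Prdx6 uses a single cysteine that is restored with glutathione. Glutathione S-transferases join glutathione to electrophiles such as lipid aldehydes and oxidised catechols. Dopamine neurons meet peroxides from dopamine breakdown and from mitochondria, and an inhibitor of complex I raises the leak of electrons to oxygen. Many genes of both families are known targets of NRF2, a transcription factor that binds the antioxidant response element.

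To show this element in the genes at issue, the core TGACNNNGC was searched on both strands of RefSeq promoters of the assembly GRCr8, which run from 250 bases before to 50 bases after the annotated start. A promoter was found for 9 of the 10 genes, all except Prdx6. The core was present in 4 of the 9 (44.4%), Prdx1, Prdx4, Prdx5 and Gstp1, against 12.1% of all 33469 promoters. In the lines below the match is in capitals; the whole promoter is given for Prdx1 and 20 bases on either side of the match for the others. Prdx1 lies at chr5:135383656-135383955 on the + strand, the Prdx4 window at chrX:43878732-43878780 (+), the Prdx5 window at chr1:213532000-213532048 (-) and the Gstp1 window at chr1:210769738-210769786 (-).
Prdx1: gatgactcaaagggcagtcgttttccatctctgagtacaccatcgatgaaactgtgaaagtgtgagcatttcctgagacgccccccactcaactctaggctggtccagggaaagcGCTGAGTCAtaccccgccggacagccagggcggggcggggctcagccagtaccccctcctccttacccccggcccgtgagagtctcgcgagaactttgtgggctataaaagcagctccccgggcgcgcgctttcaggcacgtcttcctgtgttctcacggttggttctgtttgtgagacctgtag
Prdx4: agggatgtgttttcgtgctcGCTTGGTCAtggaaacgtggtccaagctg
Prdx5: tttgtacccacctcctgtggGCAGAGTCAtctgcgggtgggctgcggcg
Gstp1: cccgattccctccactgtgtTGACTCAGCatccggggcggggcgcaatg
The match began 135 bases before the start in Prdx1 and 61 bases before it in Gstp1. At Prdx5 it spanned the start, beginning 1 base before it, and at Prdx4 it began at base 20 of the transcript. The matches of Prdx1 and Gstp1 overlapped a match to TGANTCA, the element of the AP-1 factors, which 2 of the 9 and 7.33% of all promoters held. The promoters of Prdx2, Prdx3, Gstm1, Gstm2 and Gsta4 did not hold the core in this window. These matches describe letters in the reference and say nothing of binding in these rats.

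On the rotenone arrays 44.2% to 49.1% of probes exceeded background, and on the solvent arrays 49.0% to 51.5% did. Th and Slc6a3, which mark dopamine neurons, were above background on all 6 arrays. The array of rotenone rat 16 stood apart: its mean correlation with the others, across probes, was 0.931, against 0.956 to 0.964. Among the 12468 probes above background on all arrays, it was the lowest of the 6 at 24.2% and the highest at 32.3%, so it was extreme in both directions at more probes than any other array. Differences are therefore given with and without this rat. Captured tissue holds several cell types, and in it fewer cells of a type and less RNA per cell cannot be told apart.

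Prdx1 and Prdx2 are the abundant cytosolic peroxiredoxins, and Prdx2 is known as the form enriched in neurons. Prdx1 (probe GE19485) had normalized log2 intensities of 8.63, 10.20 and 9.98 in rotenone rats 16, 13 and 9, against 10.27, 10.28 and 9.75 in solvent rats 11, 7 and 1. The groups overlapped, and rotenone rat 16 alone lay far below the rest. The group means were 9.60 ± 0.85 with rotenone and 10.10 ± 0.30 with solvent (SD, n = 3 each). The difference was -0.50 on the log2 scale (95% interval -1.30 to 0.31), for which limma gave an adjusted p of 0.895 (Benjamini-Hochberg, moderated variances, 16708 probes tested). Without rat 16 the difference was -0.01 (interval -0.49 to 0.47).

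Prdx2 (probe GE20391) had the same pattern among the rats. Its log2 intensities were 9.48, 10.94 and 10.75 in rotenone rats 16, 13 and 9, against 11.12, 11.30 and 10.51 in solvent rats 11, 7 and 1. Solvent rat 1 lay below rotenone rats 13 and 9, so that the groups overlapped. The difference was -0.59 (interval -1.38 to 0.21, adjusted p 0.895 in limma) and -0.13 without rat 16 (interval -0.67 to 0.42). In the authors' scaled intensity, in multiples of the array median, Prdx2 was at 50.2 in rat 16, against 124.0 and 115.8 in the other rotenone rats and 88.3 to 156.7 in the solvent rats. For Prdx1 the scaled intensity was 24.5 in rat 16, against 74.2 and 67.2 in the other rotenone rats and 51.6 to 79.8 in the solvent rats. The reference lists 7 pseudogenes of Prdx1 and the gene Prdx1l1, and the probe sequence was not used here, so signal of such copies could not be separated.

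Prdx3 is the peroxiredoxin of the mitochondrial matrix, the compartment next to the site that rotenone blocks. Its probe (GE1192094) had log2 intensities of 7.87, 8.28 and 8.33 in rotenone rats 16, 13 and 9, against 8.38, 8.27 and 7.91 in solvent rats 11, 7 and 1. The groups overlapped almost fully, and each held 1 rat near 7.9. The difference was -0.02 (interval -0.46 to 0.41, adjusted p 0.991 in limma) and 0.12 without rat 16. This interval leaves room for a change of the mean by about 0.4 log2 units in either direction.

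Prdx4 is the form of the secretory pathway, where it uses peroxide to oxidise protein thiols. Its probe (GE21414) had log2 intensities of 6.44, 7.47 and 6.83 in rotenone rats 16, 13 and 9, against 7.19, 7.95 and 6.84 in solvent rats 11, 7 and 1. The probe was above background on all 6 arrays but dim in rat 16, at a net signal of 21.9 scanner units, where the array median was 11.7. The groups overlapped and spread widely, with SDs of 0.52 with rotenone and 0.57 with solvent. The difference was -0.42 (interval -1.12 to 0.29, adjusted p 0.895 in limma). It was -0.18 without rotenone rat 16 and -0.10 without solvent rat 7, whose value was the highest of the 6.

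Prdx5 is found in mitochondria, peroxisomes and the cytosol. Its probe (GE13353) had log2 intensities of 11.01, 11.17 and 10.94 in rotenone rats 16, 13 and 9, against 10.93, 11.27 and 10.74 in solvent rats 11, 7 and 1. Rat 16, the lowest for Prdx1 to Prdx4, lay in the middle here. The difference was 0.06 (interval -0.35 to 0.47, adjusted p 0.964 in limma) and 0.08 without rat 16.

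Prdx6, also a phospholipase and prominent in astrocytes, was the 1 member whose groups did not overlap. Its probe (GE1129281) had log2 intensities of 11.66, 11.01 and 11.11 in rotenone rats 16, 13 and 9, against 10.55, 10.86 and 10.75 in solvent rats 11, 7 and 1. The 3 rotenone values lay above the 3 solvent values, and rat 16 was the highest. Across the 16708 probes tested, 5.08% had all rotenone values above all solvent values and 9.97% did not overlap in either direction. The means were 11.26 ± 0.35 with rotenone and 10.72 ± 0.15 with solvent (SD, n = 3 each).

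The Prdx6 difference was 0.54 (interval 0.09 to 0.99), with an unadjusted p of 0.0242 and an adjusted p of 0.895 in limma, and an exact permutation p of 0.1, two-sided, the smallest that 3 against 3 rats can give. An unadjusted p below 0.05 was reached by 4.94% of all probes tested, 1.99% with a higher and 2.95% with a lower mean in rotenone rats. In the authors' scaled intensity Prdx6 was at 271.8, 130.4 and 150.4 times the array median in rotenone rats 16, 13 and 9, against 96.7, 119.9 and 103.3 in solvent rats 11, 7 and 1, a ratio of the means of 1.73. In net signal before any scaling, rotenone rat 13, at 1932 scanner units, stood barely above solvent rat 7, at 1927. Without rat 16 the difference was 0.33 (interval -0.05 to 0.71, unadjusted p 0.0808, adjusted p 1.00). The reference lists 3 pseudogenes of Prdx6, whose signal could not be separated either.

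**Figure D1:**
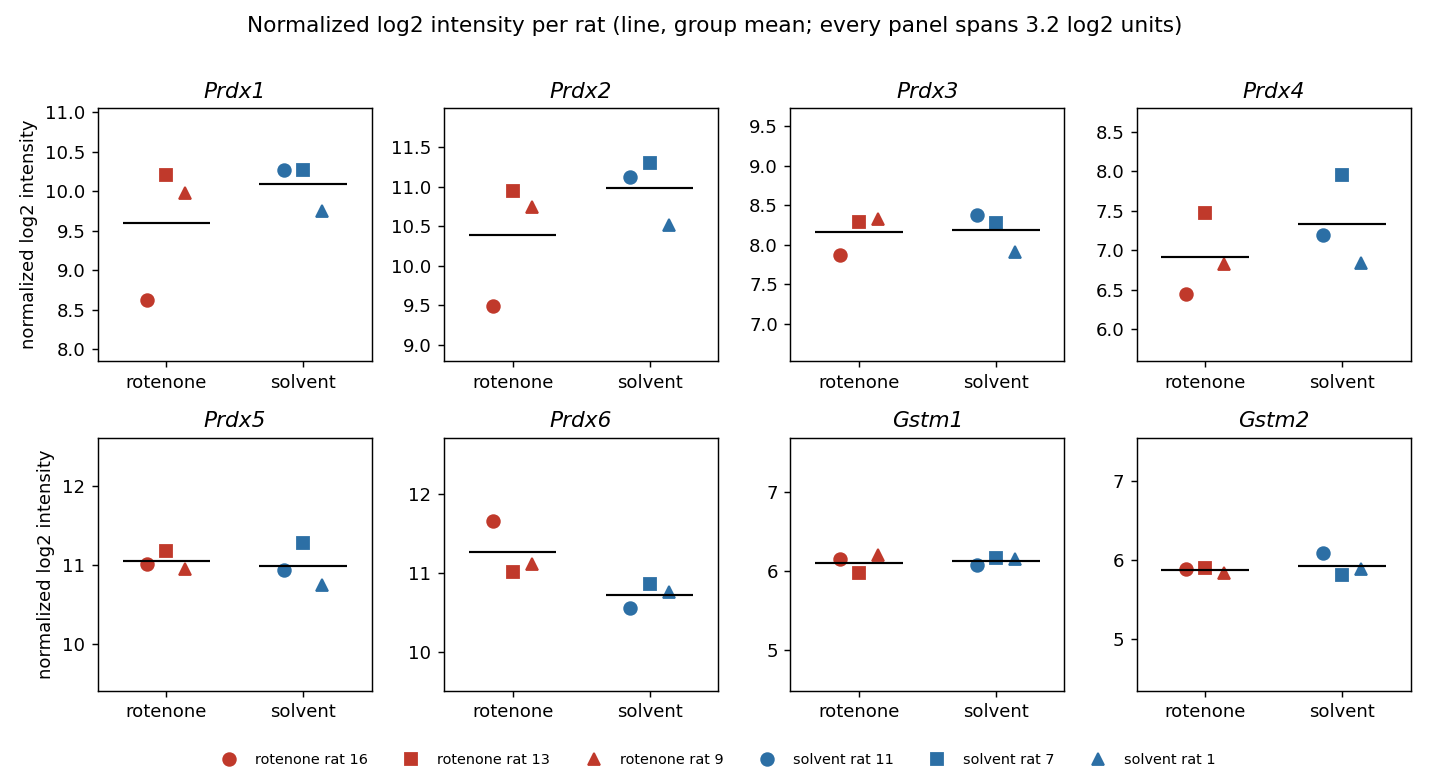
Normalized log2 intensity (vertical axis) of the 8 member probes in each rat, with rotenone rats in red, solvent rats in blue and a line at each group mean; every panel spans the same range of log2 units. Prdx6 is the panel in which the 3 rotenone points lie above the 3 solvent points, and rotenone rat 16 lies at 8.63 for Prdx1 and 9.48 for Prdx2, below the other rats.

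The peroxiredoxins thus did not move as 1 group in rat 16. Its deviation from the solvent mean was -1.47 for Prdx1, -1.49 for Prdx2, -0.31 for Prdx3 and -0.89 for Prdx4, but 0.03 for Prdx5 and 0.94 for Prdx6. It was the lowest of the 6 rats for 4 of the 6 genes and the highest for 1. Rotenone rat 13 deviated by -0.03 to 0.29 over the 6 genes. Rotenone rat 9 deviated by -0.50 for Prdx4, by 0.39 for Prdx6 and by -0.23 to 0.14 for the others. Among the solvent rats, rat 1 was the lowest of the 3 for 5 of the 6 genes, Prdx1 to Prdx5, where it was so at 34.9% of probes above background on all arrays. Solvent rat 7, whose scanner file alone carried another date, was the highest of all 6 rats for 4 of the 6 genes, where it was so at 14.2% of those probes.

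**Figure D2:**
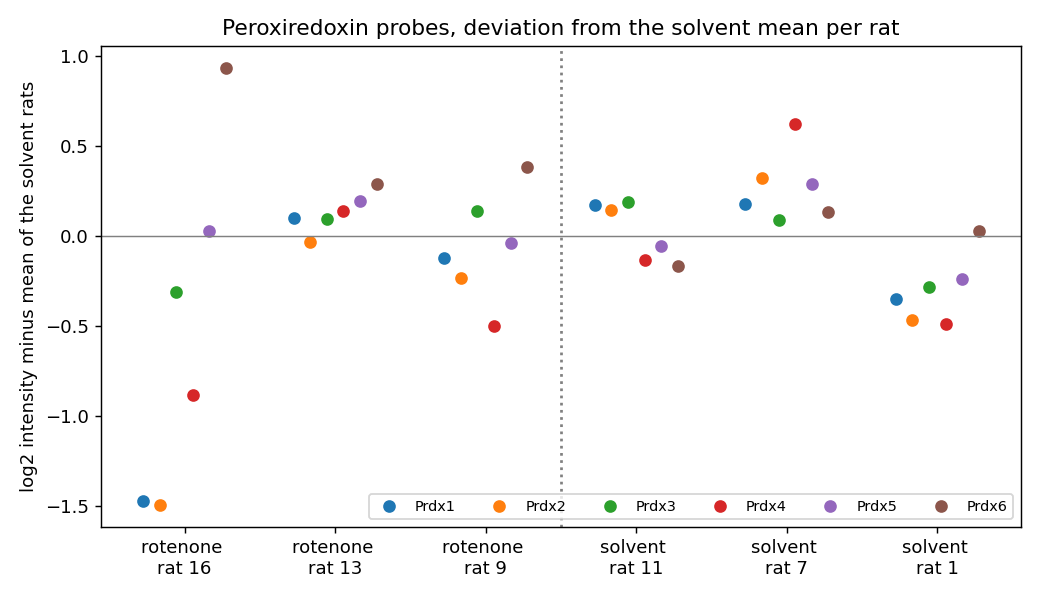
Log2 intensity minus the mean of the 3 solvent rats (vertical axis) for the 6 peroxiredoxin probes, 1 point per gene and rat; solvent rats are part of that mean, which draws their points towards 0. In rotenone rat 16 the points run from -1.49 for Prdx2 to 0.94 for Prdx6, while Prdx6 is above 0 in the 3 rotenone rats.

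The scatter between rats also differed among the family. The residual SD about the group means was 0.64 for Prdx1 and 0.63 for Prdx2, higher than at 99.0% and 98.9% of the probes tested, and 0.54 for Prdx4, higher than at 97.3%. It was 0.25 for Prdx3, 0.21 for Prdx5 and 0.27 for Prdx6. Without rat 16 it was 0.26 for Prdx1 and 0.34 for Prdx2, but 0.54 for Prdx4, then higher than at 98.0% of probes. The scatter of Prdx4 was therefore as large among the other 5 rats.

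The transferases Gstm1 and Gstm2 belong to the mu class, which conjugates oxidised catechols and epoxides. Gstm1 (probe GE20274) lay at the edge of detection, above background on 1 rotenone and 2 solvent arrays. Its log2 intensities were 6.15, 5.98 and 6.20 in rotenone rats 16, 13 and 9, against 6.08, 6.17 and 6.15 in solvent rats 11, 7 and 1. The difference was -0.02 (interval -0.37 to 0.32, adjusted p 0.988 in limma), or -0.05 without rat 16, and so near background the measured difference is drawn towards 0. Gstm2 (probe GE1260924) was not well above background on any of the 6 arrays, with net signals of 1.16 to 4.10 scanner units in the rotenone rats and 0.54 to 12.2 in the solvent rats, and was not tested.

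Over the 7 members tested, 0 passed an adjusted p of 0.05, against 0% of all probes. Of the 7, 1, Prdx6, had an unadjusted p below 0.05 in limma, against 4.94% of all probes. The means of 5 were lower and of 2 higher with rotenone, where 48.4% of all probes were lower, or 61.9% with array medians equalised in place of quantile normalization. The median difference was -0.02 over the 7 and 0.01 over all probes tested. With the spots that carry a scanner quality mark left out, no peroxiredoxin could be tested, since 35 of their 36 spots carried the irregular mark. That mark was on 29.4% to 36.3% of all spots of an array, but on 77.6% to 89.1% of those whose probe was above background on all arrays, as the 6 peroxiredoxins were.

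**Figure D3:**
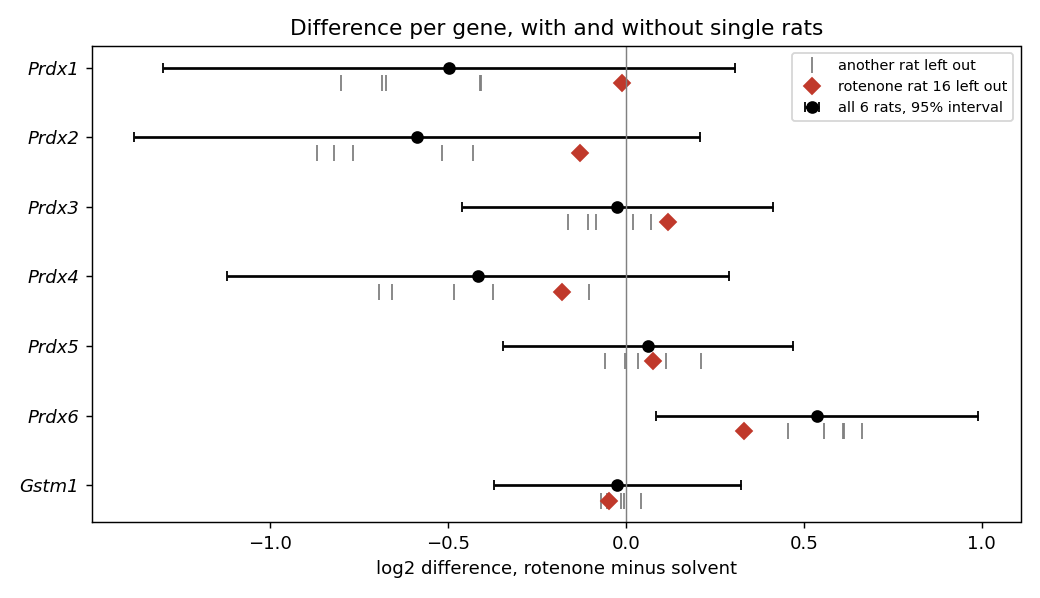
Log2 difference, rotenone minus solvent (horizontal axis), for the 7 members tested; black points and bars give the estimate and 95% interval with all 6 rats, red diamonds the estimate without rotenone rat 16 and grey ticks that without another rat. The Prdx6 estimates stay between 0.33 and 0.66 when a rat is left out, and those of Prdx1 run from -0.80 to -0.01.

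The genes that serve these enzymes were taken from 3 lists with 73 symbols, of which 28 genes could be tested. None of the 28 passed the adjusted test, 3 (10.7%) had an unadjusted p below 0.05, against 4.94% of all probes, and 12 were higher and 16 (57.1%) lower in mean, against 48.4% of all probes lower. The groups did not overlap at 4 of the 28 (14.3%, against 9.97% of all probes): Txnrd1 and Gsta2 with rotenone above, Gstm3 and Hagh with rotenone below. Among 5 thioredoxin and glutaredoxin genes, 0 passed the test in either direction, 3 were higher and 2 lower in mean, and the median difference was 0.16, or 0.07 without rat 16 and 0.05 with array medians equalised. Txnrd1, the cytosolic reductase that keeps thioredoxin and so Prdx1 and Prdx2 active, was at 7.82, 7.26 and 7.50 in rotenone rats 16, 13 and 9, against 6.93, 6.79 and 7.17 in solvent rats 11, 7 and 1. The 3 rotenone values lay above the solvent values, as at 5.08% of all probes tested. The difference was 0.56 ± 0.19 (SE; unadjusted p 0.0155 in limma, adjusted p 0.895), and 0.42 without rat 16.

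Thioredoxin itself, Txn1, differed by -0.29 (interval -0.71 to 0.13), and by -0.12 without rat 16. The glutaredoxins Glrx and Glrx3, which act on mixed disulfides with glutathione and on iron-sulfur clusters, differed by 0.16 each, and without rat 16 by 0.12 for Glrx and 0.07 for Glrx3. Txn2, the mitochondrial thioredoxin that serves Prdx3, was too dim for a test.

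Of 11 genes of glutathione synthesis, reduction and turnover, 0 passed in either direction, 5 were higher and 6 lower, and the median was -0.02, or -0.14 with array medians equalised. Gclm, the modifier subunit of the enzyme that limits glutathione synthesis, differed by -0.08 (interval -0.59 to 0.42), but by 0.09 without rat 16, so that its direction turned. Gss, which completes the synthesis, differed by 0.09 (interval -0.26 to 0.44) and by 0.12 without that rat. Hagh, of methylglyoxal removal, had the smallest p of this list, with a difference of -0.45 (interval -0.90 to 0.01) and -0.23 without rat 16. The peptidase genes Anpep and Ggt5 differed by 0.43 and 0.20, and Cbs, of the pathway that makes cysteine, by -0.34. Without rat 16 the difference of Anpep was 0.03, that of Ggt5 0.14 and that of Cbs -0.06. The catalytic subunit Gclc and the glutathione reductase Gsr were too dim for a test.

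The third list, with other transferases and transporters of conjugates, held 12 tested genes, of which 0 passed in either direction, 4 were higher and 8 lower, with a median of -0.17 (-0.15 without rat 16, -0.48 with plain background subtraction). Gstm3, a mu class relative of Gstm1 and Gstm2, was at 8.39, 8.99 and 9.08 in rotenone rats 16, 13 and 9, against 9.46, 9.36 and 9.20 in solvent rats 11, 7 and 1. The rotenone values lay below the solvent values, as at 4.89% of all probes tested, with a difference of -0.52 ± 0.21 (SE; unadjusted p 0.0307 in limma, adjusted p 0.895) and -0.30 without rat 16. Gstm5, of the same class, differed by -0.66 (interval -1.36 to 0.03) and by -0.24 without rat 16. Gstm7, also of the mu class and brighter than Gstm3 and Gstm5, differed by -0.03 (interval -0.44 to 0.39), and by -0.03 without rat 16. The membrane-bound transferase Mgst1 differed by -0.46 (interval -0.89 to -0.04, adjusted p 0.895 in limma), with overlapping groups, and the conjugate exporter Abcc1 by -0.43. Without rat 16 the differences were -0.36 for Mgst1 and -0.40 for Abcc1. Mu class transferases are close in sequence, and how far their probes share signal could not be examined.

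**Figure D4:**
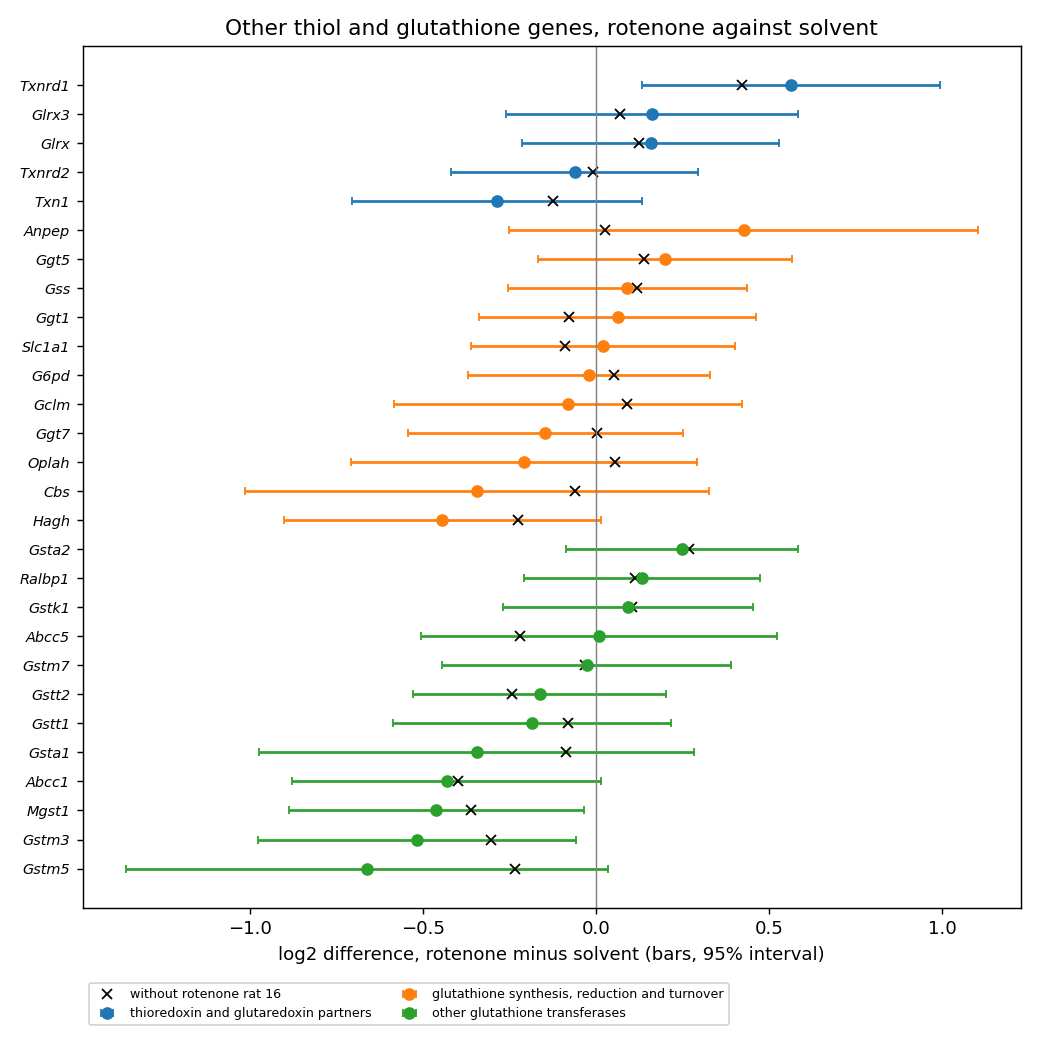
Log2 difference, rotenone minus solvent (horizontal axis), of the 28 tested genes of the 3 lists, with 95% intervals as bars, coloured by list; black crosses give the estimate without rotenone rat 16. Txnrd1 lies highest, at 0.56, and Gstm5 lowest, at -0.66, and most crosses lie nearer to 0 than the points.

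Markers of cell types that differ in their peroxiredoxins also varied between the arrays. The mean log2 intensity of 8 of 15 neuron markers ran from 7.73 to 8.38 over the rotenone rats and from 8.34 to 8.62 over the solvent rats, with rat 16 the lowest at 7.73. All 8 had a lower mean with rotenone, as did 5 of the 7 members tested and 48.4% of all probes, with a median difference of -0.28. Of them 3, Ina, Gap43 and Syn2, had an unadjusted p below 0.05 in limma, against 4.94% of all probes. The adjusted test was passed by 0 of 8. Syn1 was above background on 1 rotenone and 3 solvent arrays. Without rat 16 the difference was 0.05 for Nefl and 0.34 for Nefm, so that their direction turned. It was then -0.03 for Stmn2, -0.02 for Uchl1, -0.48 for Ina, -0.39 for Gap43, -0.30 for Syn2 and -0.22 for Syn1. The mean log2 intensity of 10 of 14 astrocyte markers ran from 9.33 to 9.82 with rotenone and from 9.55 to 9.69 with solvent. Rat 16 again had the lowest mean. These markers went both ways, 5 higher and 5 lower with rotenone. In rat 16 Gfap, Gja1, S100b, Aldoc and Mt3 were the lowest of the 6 rats. Gjb6 alone, at 9.98, was the highest, as Prdx6 was. Mt3, with a difference of -0.70, was the 1 astrocyte marker with an unadjusted p below 0.05 in limma. For 9 of 14 oligodendrocyte markers the ranges were 8.42 to 8.72 with rotenone and 8.53 to 8.98 with solvent, and for 5 of 13 microglia markers 7.91 to 8.24 with rotenone and 7.93 to 8.37 with solvent. With rotenone 7 oligodendrocyte markers were lower in mean and 2 higher (median -0.21), and 4 microglia markers were lower and 1 higher (median -0.15). Mal, at -0.66 and at -0.34 without rat 16, was the 1 oligodendrocyte marker with an unadjusted p below 0.05 in limma. For 9 of 12 dopamine neuron markers the mean ran from 9.36 to 9.73 with rotenone and from 9.59 to 9.85 with solvent. Here rat 13 was the lowest, and rat 16 was at 9.59. Of these markers 4 were higher and 5 lower in mean with rotenone (median -0.17). Nr4a2, at -0.79 and at -0.47 without rat 16, was the 1 with an unadjusted p below 0.05 in limma. Slc6a3, at -0.20 and at -0.14 without rat 16, had its rotenone values below its solvent values, as 4.89% of all probes did. Pitx3, 1 of the 5 lower, was above background on 0 rotenone and 3 solvent arrays, so it was tested through the solvent arrays alone. For 5 of 12 endothelial and pericyte markers the ranges were 7.31 to 7.58 with rotenone and 7.35 to 7.49 with solvent. They overlapped as well for 4 of 11 ependymal, choroid plexus and meningeal markers, at 8.87 to 9.87 with rotenone and 8.91 to 9.70 with solvent, and for 4 of 9 blood cell markers, at 6.47 to 7.08 with rotenone and 6.52 to 6.82 with solvent. Of the endothelial and pericyte markers 2 were higher and 3 lower in mean with rotenone. The counts were 3 and 1 for the ependymal, choroid plexus and meningeal markers, and 2 and 2 for the blood cell markers. The neuron marker Snap25 and the astrocyte marker Aqp4 were too dim to be counted. The part of cell content and of RNA quality in the peroxiredoxin values was not tested.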

How the data were processed

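RNA amplified from the laser-captured region of each rat was hybridised to 1 array, per the labels' protocols, and the groups were taken from the labels, so the replicate is the animal. The deposited scanner files give each spot's mean, its local background and the net and scaled intensity on a linear scale; no label or header names the scanner software. The authors' value table holds the same scaled intensity, with column medians near 1, but the column of solvent rat 7 matched the scanner file at 0.898% of probes against 100% for the others, so it served as an alternative only. Arrays were aligned by spot position, corrected with normexp (offset 50) and quantile-normalized on the log2 scale. Probes were named through RefSeq accessions of GRCr8 (4675 of 33849 named), and the gene's probe with the highest mean was used in lists. A probe was tested if above background on at least 3 of 6 arrays, with limma 3.58.1 in R 4.3.3, two-sided, Benjamini-Hochberg over all 16708 probes; the number of arrays limits the precision, and the offset draws dim probes' differences towards 0. The code was checked on simulated data. Members and lists were chosen with earlier results of these data known. Named by rule are all members, the 4 genes with the smallest p of each list, and Txnrd1, Txn1, Txn2, Gclc, Gclm, Gsr and Gss. The rule also covers the markers Th, Slc6a3, Gfap and Aqp4. Gsta2, Gstm7 and the other cell type markers named were picked for their values, outside this rule. Alternatives were median scaling, cyclic loess, subtraction, offset 16, other filters on dim or marked spots, the value table, no moderation, array weights and leaving out each rat. The value table was run as deposited and with its solvent rat 7 column replaced by scanner values.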

Additional observations from a re-analysis of the deposited data

How the results depend on the processing

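Under every alternative run, 0 members and 0 genes of the 3 lists passed the adjusted test. Over all probes the count was 0, except for 2 of 4283 with marked spots left out; with a rat left out it ran from 0 to 3, the 3 arising without solvent rat 1. With marked spots left out no peroxiredoxin could be tested. Fewer than 2 thioredoxin or glutaredoxin genes could be, so that list had no median. Apart from that filter and the value table as deposited, 12 alternatives could move a gene's difference (both filters on dim probes and the unmoderated test cannot). Under these the direction was kept for Prdx6 (0.33 to 0.72), Prdx1 (-0.80 to -0.01), Prdx2 (-0.87 to -0.13) and Prdx4 (-0.76 to -0.10). The ends 0.72 and -0.76 came from the value table with its solvent rat 7 column replaced by scanner values. For Prdx3 the difference was 0.0484 with array weights and -0.16 to 0.12 with a rat left out, for Prdx5 -0.0571 to 0.21 and for Gstm1 -0.0695 to 0.0419 with a rat left out. The value table as deposited, whose solvent rat 7 column did not match the scanner file, gave 0.48 for Prdx1, 1.21 for Prdx2, 0.65 for Prdx3, 0.96 for Gstm1 and a median of 0.74 over all probes. The unadjusted p of Prdx6 was above 0.05 with subtraction, offset 16, the value table, no moderation, and without rotenone rat 16 or solvent rat 11. Without rotenone rat 13, Prdx1, Prdx2 and Prdx4 also had an unadjusted p below 0.05, as did 8.20% of all probes, against 4.94% with all rats. The date in the scanner files put 5 arrays in 1 group and solvent rat 7 in another, so a date block equals leaving out that rat. What step that date records was not examined. No paired analysis was possible because the groups share no rat numbers. Dim signal limits Gstm1 and Gstm2.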
